A study of Mus musculus with 9 samples.

Results

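The mitochondrial ribosomal proteins are the proteins encoded by nuclear genes that build the ribosome inside mitochondria. Their transcripts were followed in RAW264.7, a mouse macrophage-like cell line labelled wild type, by poly(A) RNA sequencing. Members were taken by symbol: every gene named Mrpl or Mrps followed by a digit, which found 78 of the 12474 rows listed in each library. Of these, 49 carry an Mrpl symbol (large subunit) and 29 an Mrps symbol (small subunit). One of them, Mrpl23-ps1, is a pseudogene with 2 to 6 fragments per library, a mean of 0.425, 0.265 and 0.177 FPKM in the 3 groups below, and fell under the limit for testing (at least 0.5 FPKM in at least 3 libraries). The other 77 are protein coding and were all tested.

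Mock cells are the reference, and what they received is not stated beyond that name. M1 cells were driven to the pro-inflammatory state with 100 ng/ml of lipopolysaccharide (LPS, a bacterial cell wall component) together with 50 ng/ml of mouse interferon gamma, a T cell cytokine. The third group, I (called iodide in what follows), had the same polarization with potassium iodide present at 20 mM. Each group has 3 libraries. How long polarization lasted, and whether libraries of a group are separate cultures, is not given in the sources used here. The p-values therefore reflect how far single libraries vary, and that variation may be technical. No group had iodide alone or another potassium salt, so iodide, potassium and added osmolarity cannot be told apart.

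Mitochondria keep a small genome of their own, and the proteins it encodes are subunits of the respiratory chain and of ATP synthase. They are made by the mitochondrial ribosome, whose RNAs come from that genome while all its proteins are imported from the cytosol. The small subunit decodes the messenger RNA, and the large subunit joins the amino acids and is held at the inner membrane, where the new chains are inserted. Macrophages given LPS and interferon gamma are known for turning from respiration towards glycolysis. The messenger RNAs made inside mitochondria are not analysed here.

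Recovered library totals were 17431070 to 25470730 fragments, and the tested members held 58 to 4358 fragments per library, so counting error is largest for the lowest of them. FPKM here is fragments scaled by the summed length of all annotated exons of a gene and by the library's total. Levels of different genes therefore depend on the annotation. Mrpl33 held 274 to 468 fragments over 7326 exon bases, and Mrpl34 223 to 426 over 607, with 2.38 and 28.5 FPKM in Mock. Within a group, Pearson r between libraries was 0.9968 to 0.9973 across genes on the log2 scale, which are not independent replicates. All 4 polarization checks were higher in M1 than in Mock. With iodide against M1, Nos2 and Tnf were higher and Il1b and Csf3 lower. Nos2, the inducible nitric oxide synthase gene, had 22.2 FPKM in Mock, 1447 in M1 and 2070 with iodide, and the cytokine gene Il1b had 0.215, 54.6 and 11.98 FPKM. Of 10 macrophage markers all are listed, and their summed level was 4718 to 4808 FPKM in Mock, 3347 to 3457 in M1 and 2454 to 2567 with iodide. Lyz2, the lysozyme gene, was the largest part of that sum in Mock, with 3155, 1138 and 675 FPKM in Mock, M1 and iodide, and Cd14, a co-receptor for LPS, was the largest in M1 and with iodide, with 752, 1550 and 1326 FPKM. Of the 9 markers tested, Adgre1, Itgam, Cd14 and Cd68 were higher in M1 and the other 5 lower, and with iodide against M1 2 were higher and 7 lower. Adgre1 had 21.7, 103 and 35.1 FPKM. Of 10 proliferation genes all were lower in M1 than in Mock, and their summed level averaged 353.1, 30.7 and 21.8 FPKM in Mock, M1 and iodide. Among 6 osteoclast markers 5 are listed and 4 were tested, of which 3 were higher and 1 lower in M1, and 3 were lower with iodide against M1. Dcstamp had 22.4, 47.7 and 20.04 FPKM, and Mmp9, lower in both comparisons, had 19.03, 9.83 and 1.73 FPKM. Beside these counts, 30.5% of all tested genes were higher and 55.3% lower in M1, and 24.9% and 39.3% with iodide against M1. Of the 17 neutrophil, lymphocyte, fibroblast and epithelial markers 0 are listed. The rows hold only genes above 0 in all 9 libraries, so a marker at 0 in any library would not be listed. In bulk RNA, fewer cells of a kind and less RNA per cell cannot be told apart. The part of the proliferation genes and markers in the results below was not tested.

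Most members lay at moderate levels. The median member had 13.1 FPKM in Mock, 9.96 in M1 and 7.60 with iodide. Mrpl12, which encodes the stalk protein of the large subunit that contacts translation factors, was the highest in Mock with 47.9, 50.7 and 50.1 FPKM. Mrpl45, which encodes a protein at the exit of the large subunit's tunnel that helps hold the ribosome at the membrane, was the highest in both polarized groups with a mean of 67.8 FPKM in M1 and 78.96 with iodide. At the low end lay Mrpl33 at 2.38 FPKM in Mock, and Mrps35 at 1.96 in M1 and 1.05 with iodide. Their annotated exons sum to 7326 and 8631 bases, and this rank depends on those lengths. Libraries of a group were close: the median coefficient of variation over the 77 genes was 4.76% in Mock, 4.73% in M1 and 4.58% with iodide. The widest spread was that of Mrps28 with iodide, at 34.2%.

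**Figure D1:**
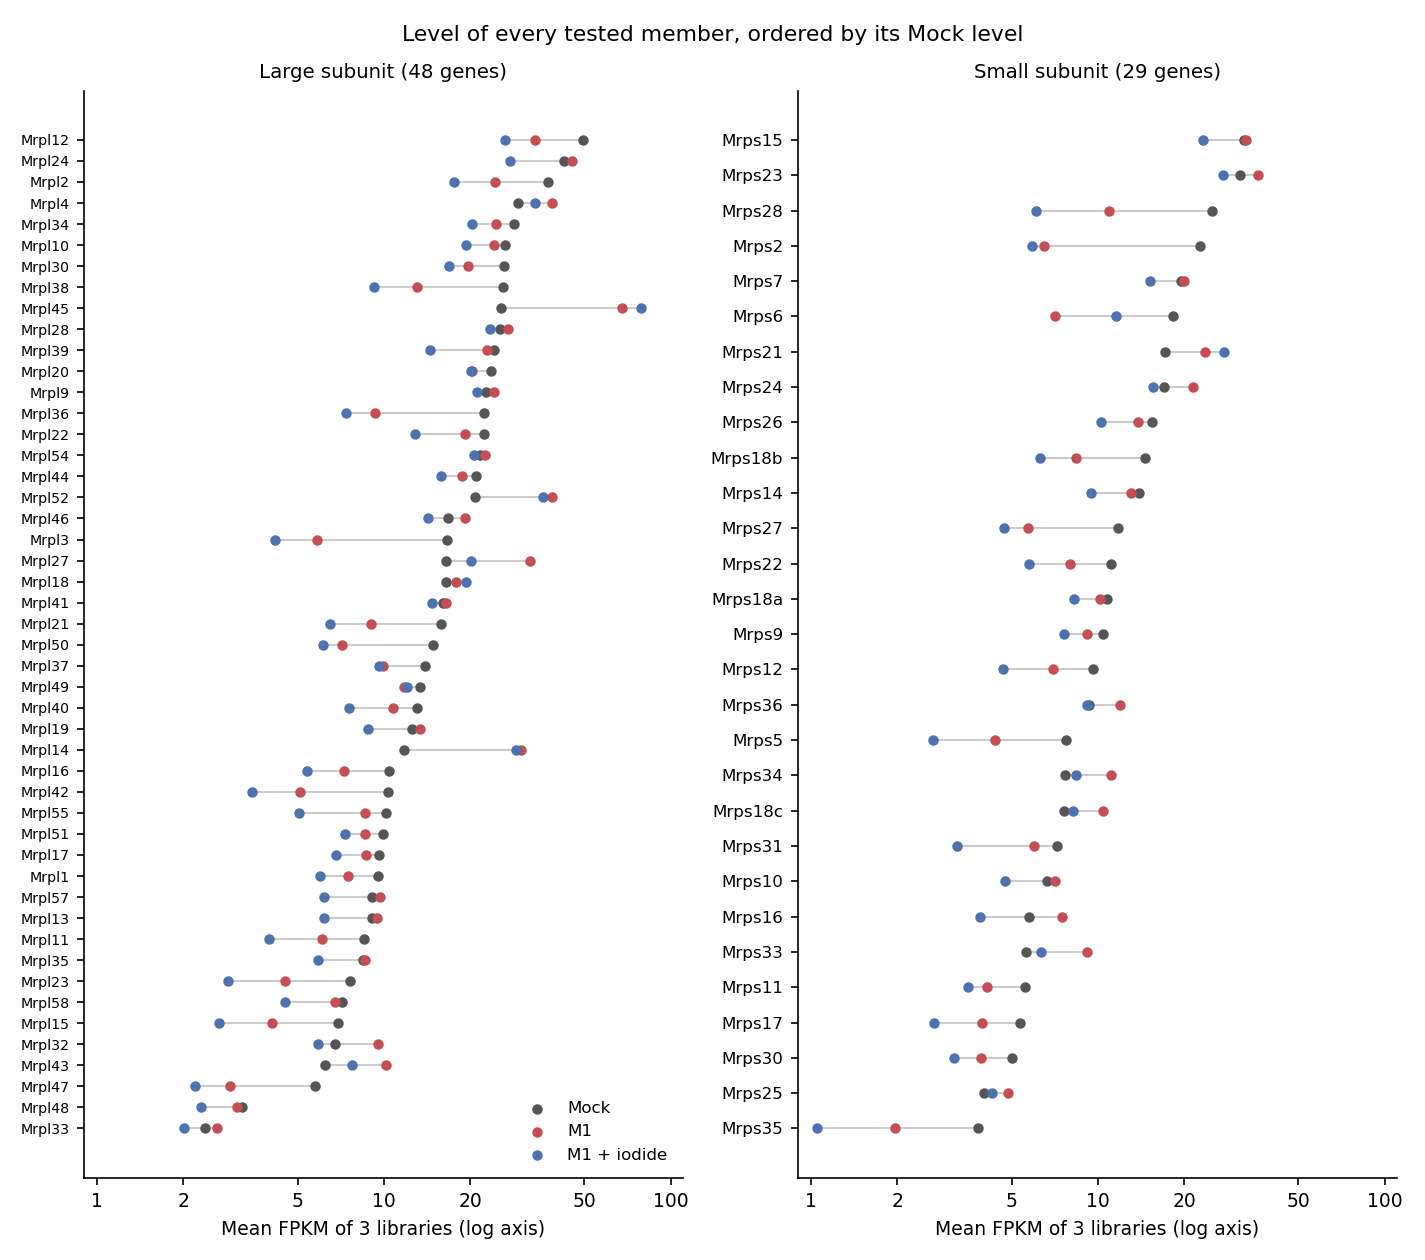
Mean FPKM (log axis, 3 libraries per group) of the 48 large subunit and 29 small subunit genes tested, ordered by their level in Mock; grey is Mock, red M1 and blue M1 with iodide. Blue points lie to the left of red ones for most genes, while Mrpl45, Mrps21 and Mrps6, and by less Mrpl18 and Mrpl49, have blue to the right of red.

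Summed over the genes of a subunit, the 49 large subunit transcripts, with the pseudogene Mrpl23-ps1 among them, came to 796.7, 812.8 and 833.3 FPKM in the 3 Mock libraries, 785.8, 812.2 and 804.7 in M1, and 669.6, 654.9 and 655.6 with iodide. In FPKM as deposited, Mock and M1 overlap, and every iodide library lies below both. The 29 small subunit transcripts summed to 361.7 ± 7.65 FPKM (SD, n = 3) in Mock, 319.9 ± 1.87 in M1 and 250.4 ± 7.71 with iodide, and as deposited these groups do not overlap. The order of the sums depends on the scaling. Median-of-ratios scaling (RLE, described below) divides each library by a factor. That factor was 1.1669 to 1.1731 in Mock, 0.9432 to 0.9541 in M1 and 0.8974 to 0.9035 with iodide, so Mock sums shrink and the others grow. All 78 together made up 0.433% of the summed FPKM in Mock, 0.358% in M1 and 0.298% with iodide.

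The ratio of the 2 sums, which does not change with the scaling of a library, was 2.22 to 2.28 in Mock, 2.47 to 2.53 in M1 and 2.59 to 2.70 with iodide. Much of this difference lay in Mrpl45 and Mrpl14. Without Mrpl45 the ratio was 2.15 to 2.21, 2.27 to 2.31 and 2.29 to 2.37, and without Mrpl45 and Mrpl14, taken out after their values were seen, it was 2.12 to 2.17, 2.17 to 2.22 and 2.17 to 2.26. The small subunit sum also rests on single genes. From Mock to M1, mean FPKM went from 22.6 to 6.49 in Mrps2, 24.9 to 10.95 in Mrps28 and 18.3 to 7.11 in Mrps6. Of all 29 small subunit genes 15 were lower and 9 higher in M1, and 7 lower and 16 higher with RLE scaling. Of all genes 55.3% were lower and 30.5% higher, and 42.6% and 43.1% with RLE scaling. No ratio was made without Mrps2, Mrps28 and Mrps6. The sums weight each gene by its level, which depends on its annotated exon length, and no test was made on them.

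**Figure D2:**
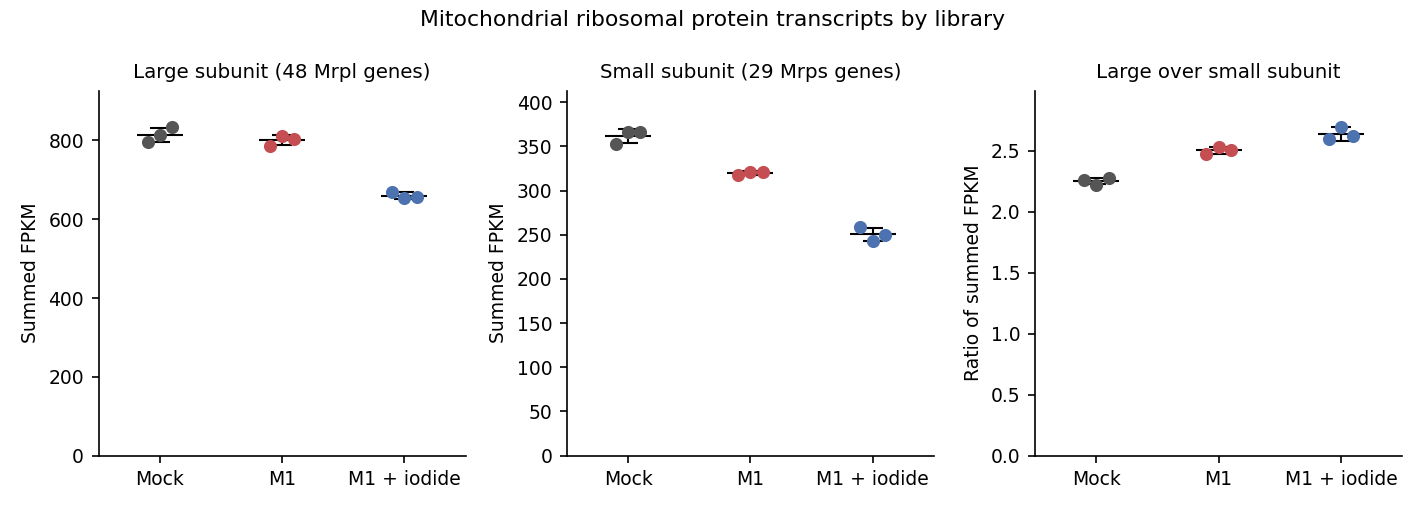
Summed FPKM of the large and small subunit genes and their ratio in each library; points are libraries, the dash is the mean and bars are 1 SD (n = 3 per group). In FPKM as deposited, the large subunit sum, which also holds the pseudogene Mrpl23-ps1, is alike in Mock and M1 and lower with iodide. The small subunit sum as deposited steps down in each group. The order of both sums depends on the scaling, and the ratio does not.

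The comparison of M1 with Mock shows how polarization alone went with these transcripts, and the genes split in both directions. With FPKM as deposited, 18 of 77 were higher in M1, 41 were lower and 18 did not pass the test (limma on log2(FPKM + 1), Benjamini-Hochberg adjusted p under 0.05). Of all 11156 genes tested, 30.5% were higher and 55.3% lower, and the median difference of all genes was −0.23 (log2). The members' median difference was −0.16, which lies 0.08 above that of the median gene. By separation of the libraries, 21 members had all 3 M1 values above all 3 Mock values, against 30.7% of all genes, and 41 had them below, against 55.6%.

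The split depends on the scaling. With median-of-ratios scaling (RLE), which sets the typical gene to no change, 42 members were higher and 21 lower, against 43.1% and 42.6% of all genes, and the members' median difference was 0.13. Under both scalings 18 members were higher and 21 lower, and 6 others went from lower to higher. The members named next kept their direction and call under both. With FPKM as deposited, a difference of 1 on the log2(FPKM + 1) scale was passed upwards by 2 members and downwards by 5. With RLE scaling Mrpl27 (1.22) and Mrpl52 (1.16) passed it upwards too. Mrps6 (−0.97), Mrpl36 (−0.89) and Mrps28 (−0.84) then no longer passed it downwards. The share of all genes passing it was not counted, and the scale understates the change of low genes.

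Among the genes higher in M1, Mrpl45 (ENSMUSG00000018882.12, chromosome 11, 97315716 to 97329920, plus strand, GRCm38) came first. It had 25.5, 26.4 and 25.1 FPKM in Mock and 65.5, 69.1 and 68.9 in M1, and the M1 libraries all lie far above the Mock ones. The log2 difference was 1.37 ± 0.029 (SE), adjusted p = 5.44e-12. Mrpl14, a large subunit protein with a bacterial counterpart that lies on the face turned to the small subunit, had 12.0, 10.6 and 12.6 FPKM in Mock and 30.1, 28.9 and 31.4 in M1 (log2 difference 1.29 ± 0.054 (SE), adjusted p = 1.07e-09). Its exons share 106 bases, 11.2% of their length, with Tmem63b on the other strand, and without knowledge of strand use the reads of both cannot be told apart.

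Mrpl27, whose bacterial counterpart reaches into the site where amino acids are joined, had 14.2, 17.1 and 18.2 FPKM in Mock and 31.2, 31.3 and 34.3 in M1 (log2 difference 0.93 ± 0.08 (SE), adjusted p = 5.91e-07). Mrpl52, a protein found only in mitochondrial ribosomes, had 19.1, 21.7 and 21.2 FPKM in Mock and 38.1, 38.3 and 39.5 in M1 (log2 difference 0.87 ± 0.047 (SE), adjusted p = 9.3e-09). In both, no M1 library came within reach of the Mock range. Next came a pair of mitochondria-specific proteins. Mrpl43 had 6.33, 6.001 and 6.36 FPKM in Mock and 9.19, 10.8 and 10.6 in M1 (log2 difference 0.63 ± 0.056 (SE), adjusted p = 9.15e-07). Mrps33, of the small subunit, had 5.28, 5.92 and 5.71 FPKM in Mock and 9.14, 9.05 and 9.22 in M1 (log2 difference 0.61 ± 0.06 (SE), adjusted p = 1.93e-06).

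Mrpl43 is an uncertain case. It lies against Twnk, the gene of the helicase that copies the mitochondrial genome, and 507 bases, 33.4% of its exon length, are shared with Twnk on the opposite strand. Twnk moved the other way, with 7.29, 7.46 and 7.33 FPKM in Mock and 0.802, 0.786 and 0.968 in M1, so its level was lowest where that of Mrpl43 was highest.

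The largest fall was that of Mrps2 (ENSMUSG00000035772.11, chromosome 2, 28468066 to 28471178, plus strand), a small subunit protein with a bacterial counterpart. It had 22.5, 23.96 and 21.5 FPKM in Mock and 6.61, 6.36 and 6.499 in M1, with a log2 difference of −1.66 ± 0.054 (SE), adjusted p = 1.49e-10. Mrpl3 (ENSMUSG00000032563.16, chromosome 9, 105053239 to 105079888, plus strand), one of the proteins at the core of the large subunit, had 15.3, 17.5 and 16.96 FPKM in Mock and 5.87, 6.12 and 5.53 in M1 (log2 difference −1.36 ± 0.053 (SE), adjusted p = 6.15e-10). Mrps6 (ENSMUSG00000039680.10, chromosome 16, 92058270 to 92112227, plus strand), also of the small subunit, had 18.5, 17.9 and 18.5 FPKM in Mock and 6.92, 6.95 and 7.45 in M1 (log2 difference −1.25 ± 0.04 (SE), adjusted p = 1.15e-10). In these 3 genes the M1 level was well under that in Mock in every library.

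Mrpl36, one of the smallest proteins of the large subunit, had 20.5, 22.7 and 23.9 FPKM in Mock and 9.05, 9.57 and 9.36 in M1 (log2 difference −1.18 ± 0.054 (SE), adjusted p = 2.58e-09). Mrps28, of the small subunit, had 25.9, 24.1 and 24.8 FPKM in Mock and 10.3, 12.4 and 10.1 in M1 (log2 difference −1.12 ± 0.17 (SE), adjusted p = 6.94e-05). Mrpl50, a mitochondria-specific protein of the large subunit, had 14.5, 16.1 and 14.1 FPKM in Mock and 7.18, 6.79 and 7.54 in M1 (log2 difference −0.96 ± 0.053 (SE), adjusted p = 1.28e-08). All 3 pairs of groups stand apart without overlap. The falls include core proteins shared with bacteria and proteins added in mitochondria, as do the rises.

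**Figure D3:**
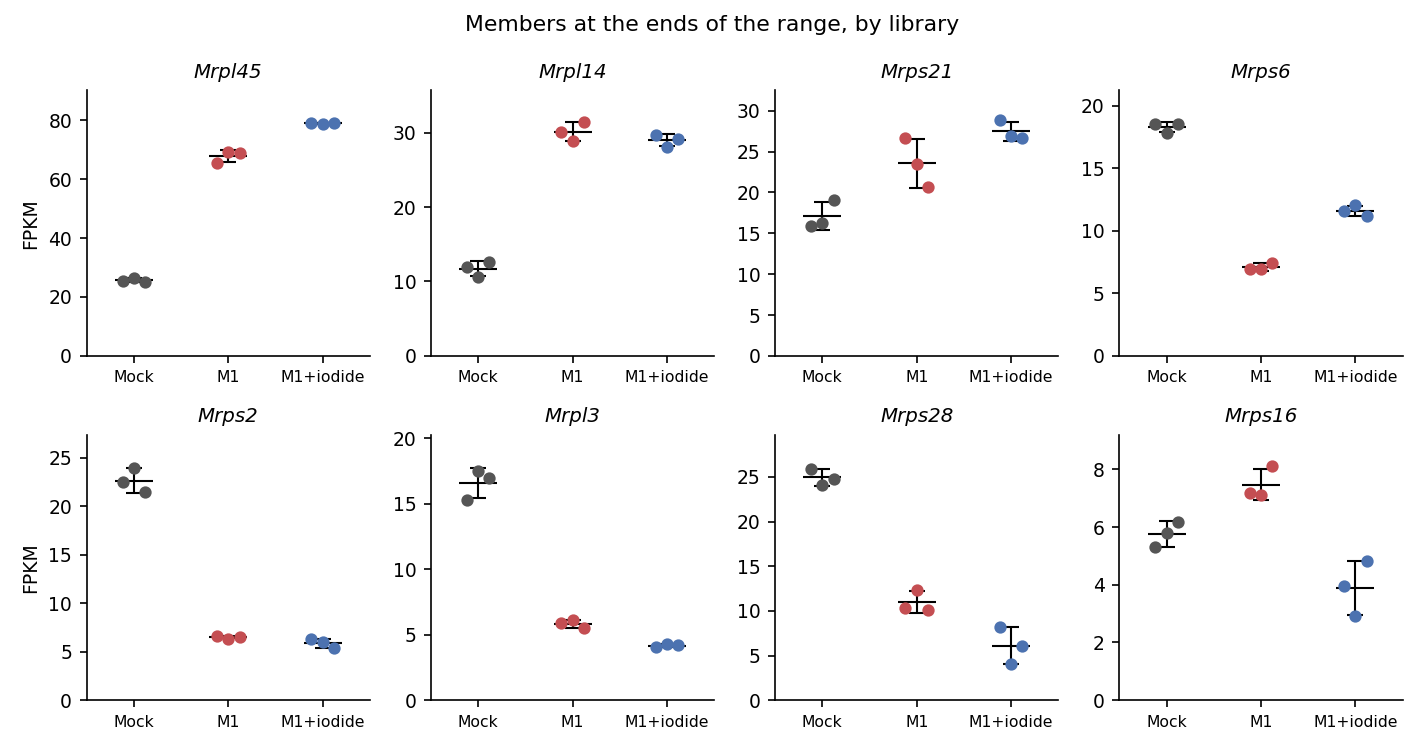
FPKM in each library for 8 members at the ends of the range in M1 vs Mock or in iodide vs M1; points are libraries, dashes are means and bars are 1 SD (n = 3). Mrpl45 steps up in both comparisons, Mrpl3 and Mrps28 step down in both, and Mrps6 falls in M1 and is partly higher again with iodide. Mrps21 steps up in M1 and has a higher mean with iodide, where its call is weak.

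Upstream sequences are shown for 5 members, 2 higher and 3 lower in M1, chosen after their values were seen. Of the 78 members 68 have an entry in the RefSeq promoter table (GRCm38.p6), which gives 250 bases before and 50 after each start. Only bases before the start that lie in no annotated exon are printed, 5′ to 3′ in the direction of the gene. Mrpl14, Mrpl27 and Mrpl36 are among the largest rises and falls too but are not printed. Mrpl14 has no such base, and the longest such stretch is 24 bases in Mrpl27 and 101 in Mrpl36. Capitals mark matches, on either strand, to the 5 motifs described next. The stretches are chr11:97315466-97315715 for Mrpl45 and chr14:54426659-54426908 for Mrpl52, which were higher in M1, and chr2:28467816-28468065 for Mrps2, chr9:105053018-105053238 for Mrpl3 and chr16:92058086-92058269 for Mrps6, which were lower, all on the plus strand.
Mrpl45: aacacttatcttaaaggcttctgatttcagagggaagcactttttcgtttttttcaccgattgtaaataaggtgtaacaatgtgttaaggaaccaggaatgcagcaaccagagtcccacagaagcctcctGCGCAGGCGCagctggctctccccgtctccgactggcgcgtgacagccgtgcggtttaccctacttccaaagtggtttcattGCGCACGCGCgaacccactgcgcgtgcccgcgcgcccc
Mrpl52: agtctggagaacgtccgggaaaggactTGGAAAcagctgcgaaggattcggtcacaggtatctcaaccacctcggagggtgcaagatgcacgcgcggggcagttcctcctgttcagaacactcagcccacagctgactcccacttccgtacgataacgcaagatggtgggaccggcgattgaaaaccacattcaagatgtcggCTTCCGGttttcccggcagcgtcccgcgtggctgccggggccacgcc
Mrps2: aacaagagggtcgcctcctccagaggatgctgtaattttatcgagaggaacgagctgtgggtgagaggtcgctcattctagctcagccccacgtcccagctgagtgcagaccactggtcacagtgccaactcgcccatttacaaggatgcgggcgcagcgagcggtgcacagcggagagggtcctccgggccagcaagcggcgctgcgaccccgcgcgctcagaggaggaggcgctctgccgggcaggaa
Mrpl3: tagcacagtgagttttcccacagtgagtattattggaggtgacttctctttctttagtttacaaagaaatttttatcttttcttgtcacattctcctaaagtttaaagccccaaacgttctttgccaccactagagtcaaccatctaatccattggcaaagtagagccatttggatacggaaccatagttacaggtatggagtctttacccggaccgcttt
Mrps6: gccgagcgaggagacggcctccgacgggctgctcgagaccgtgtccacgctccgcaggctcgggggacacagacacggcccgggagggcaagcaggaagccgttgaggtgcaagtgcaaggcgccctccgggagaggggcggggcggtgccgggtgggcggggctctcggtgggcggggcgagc

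The motifs searched in the whole windows were CCGGAAG (ETS factors, GABPA among them), the NRF1 motif (GCGCA, any base, GCGC), AANATGGCG (YY1), CACGTG (the E-box) and TGGAAA (NFAT factors, NFAT5 among them), on both strands, none contained in another. GABPA, NRF1 and YY1 are known as activators of nuclear genes for mitochondria. CCGGAAG was found in 35.3% of the members' windows, in 19.4% of those of genes in the files and in 9.12% of all windows. The NRF1 motif was found in 19.1%, 11.1% and 4.78%, and AANATGGCG in 16.2%, 5.63% and 2.51%. CACGTG was found in 7.35%, 10.3% and 7.24%, and TGGAAA in 17.6%, 16.5% and 21.5%. These are descriptions of letters, not of binding.

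Mrpl45 holds 3 matches to the NRF1 motif, at −120 to −111, −38 to −29 and 15 to 24 from the start. Mrpl52 holds CCGGAAG on the opposite strand at −47 to −41 and again at 2 to 8, and TGGAAA at −223 to −218. Mrpl14, higher in M1, holds the NRF1 motif at 4 to 13. Mrpl27, also higher, holds CCGGAAG at −55 to −49 and AANATGGCG at 8 to 16. Mrpl36, lower in M1, holds CACGTG at −43 to −38 and, on the opposite strand, AANATGGCG at −31 to −23 and TGGAAA at −250 to −245. Mrpl3 holds CCGGAAG at −19 to −13, which lies in an exon of the GENCODE annotation and is not printed. Mrps2 and Mrps6 hold none of the 5 motifs in their windows. Genes that rose and genes that fell both include windows with a match.

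The comparison of iodide with M1 holds the polarizing agents fixed and asks what potassium iodide added. Here the genes went almost all one way: 66 of 77 were lower with iodide, 3 were higher and 8 did not pass. That is 85.7% lower, where 39.3% of all genes were lower and 24.9% higher. The median member differed by −0.37 and the median gene by −0.07 (log2). With RLE scaling 62 were lower and 4 higher, against 31.7% and 31.2% of all genes. The same 62 were lower under both scalings. The steps were small, and no member reached a 2-fold difference. All 3 iodide values were below all 3 M1 values in 68 members, against 40.8% of all genes, and above them in 3, against 26.4%.

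**Figure D4:**
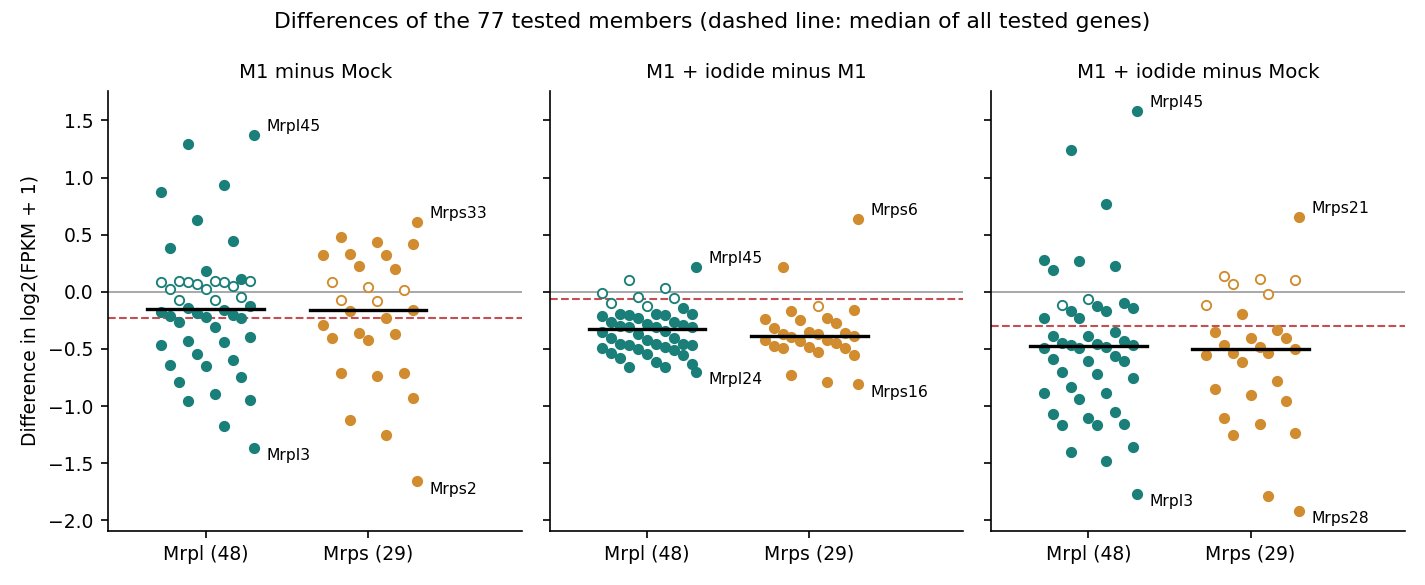
Difference in log2(FPKM + 1) of each tested member in the 3 comparisons, by subunit; filled points passed the test at an adjusted p under 0.05, open points did not, the black bar is the median of the subunit and the dashed line the median of all 11156 genes. In M1 minus Mock the points spread to both sides, and in iodide minus M1 69 of 77 sit below the dashed line, with medians of −0.32 for Mrpl and −0.39 for Mrps.

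The largest fall with iodide was in Mrps16 (ENSMUSG00000049960.4, chromosome 14, 20389304 to 20393634, minus strand), whose bacterial counterpart helps the small subunit fold. It had 5.298, 5.81 and 6.19 FPKM in Mock, 7.18, 7.13 and 8.11 in M1 and 3.95, 2.92 and 4.81 with iodide. Iodide values as deposited lie below those of both other groups, and the log2 difference from M1 was −0.81 ± 0.12 (SE), adjusted p = 0.00014. With RLE scaling the difference of iodide from Mock was −0.17 and did not pass, while that from M1 was −0.76 and passed. Leaving out I replicate 2, the lowest, gave a difference from M1 of −0.66 without RLE scaling. Mrps28 had 8.19, 4.03 and 6.04 FPKM with iodide, after 10.3, 12.4 and 10.1 in M1 (log2 difference −0.79 ± 0.17 (SE), adjusted p = 0.0018). Its iodide libraries vary widely, and without I replicate 2 the difference was −0.57.

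Mrps31, a mitochondria-specific protein of the small subunit, had 6.15, 5.74 and 6.09 FPKM in M1 and 3.38, 3.04 and 3.22 with iodide (log2 difference −0.73 ± 0.047 (SE), adjusted p = 3.13e-07). Mrpl24, whose bacterial counterpart lies by the tunnel exit, had 42.5, 42.9 and 41.7 FPKM in Mock, 44.1, 46.4 and 44.8 in M1 and 27.2, 25.4 and 29.9 with iodide (log2 difference from M1 −0.70 ± 0.049 (SE), adjusted p = 5.94e-07). Mock and M1 are close for this gene and the iodide libraries lie below both. Of its exon length 26.3% is shared with Rrnad1 on the other strand.

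Mrpl55, another mitochondria-specific protein, had 9.2, 8.42 and 8.06 FPKM in M1 and 5.603, 4.93 and 4.66 with iodide (log2 difference −0.66 ± 0.065 (SE), adjusted p = 8.08e-06). Mrpl27, one of the genes highest in M1, had 20.7, 21.1 and 18.6 FPKM with iodide after 31.2, 31.3 and 34.3 (log2 difference −0.65 ± 0.08 (SE), adjusted p = 3.69e-05), still above its Mock values. These genes differ in M1 vs Mock: Mrpl27 was higher in M1, Mrps28 lower, and Mrpl24 did not pass the test (log2 difference 0.09 ± 0.049 (SE), adjusted p = 0.111, and with RLE scaling 0.38, which passed). Without I replicate 2 or 3 the same difference of 0.09 passed in Mrpl24.

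The 3 members that were higher with iodide were Mrps6, Mrps21 and Mrpl45. Mrps6, low in M1, had 11.5, 12.04 and 11.2 FPKM with iodide against 6.92, 6.95 and 7.45 in M1 (log2 difference 0.64 ± 0.04 (SE), adjusted p = 2.52e-07). The iodide libraries lie between M1 and Mock, whose values were 18.5, 17.9 and 18.5. Mrpl45, already highest in M1, had 79.2, 78.8 and 78.9 FPKM (log2 difference 0.22 ± 0.029 (SE), adjusted p = 7.76e-05). Mrps21 had 15.9, 16.3 and 19.1 FPKM in Mock, 26.7, 23.5 and 20.6 in M1 and 28.9, 26.96 and 26.7 with iodide (log2 difference from M1 0.22 ± 0.086 (SE), adjusted p = 0.0448). This last call is weak: it was lost when any 1 of Mock replicate 2, M1 replicates 2 or 3, or any iodide library was left out, with values of 0.13 to 0.24, the lowest of them without M1 replicate 3.

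Mrps6 shares its start with Slc5a3, the gene of a sodium-coupled transporter of inositol that is known to respond to osmotic stress. Both are on the plus strand of chromosome 16, Slc5a3 from 92058322 to 92087473, within the span of Mrps6, and their RefSeq starts are 14 bases apart. They share 159 exon bases, which is 10.4% of the exon length of Mrps6, and a further gene model, Gm49711, shares 305 bases, so part of the Mrps6 signal cannot be assigned with certainty. Slc5a3 had 38.99, 38.1 and 39.2 FPKM in Mock, 7.51, 7.396 and 7.65 in M1 and 9.13, 8.93 and 9.48 with iodide. It fell in M1 (log2 difference −2.22 ± 0.032 (SE), adjusted p = 3.39e-13) and was higher with iodide than in M1 (log2 difference 0.26 ± 0.032 (SE), adjusted p = 4.77e-05). Both genes were lowest in M1. The difference from Mock was larger in Slc5a3 and that from M1 with iodide larger in Mrps6, which was not tested. The part of the shared exon in the values of Mrps6 was not tested.

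**Figure D5:**
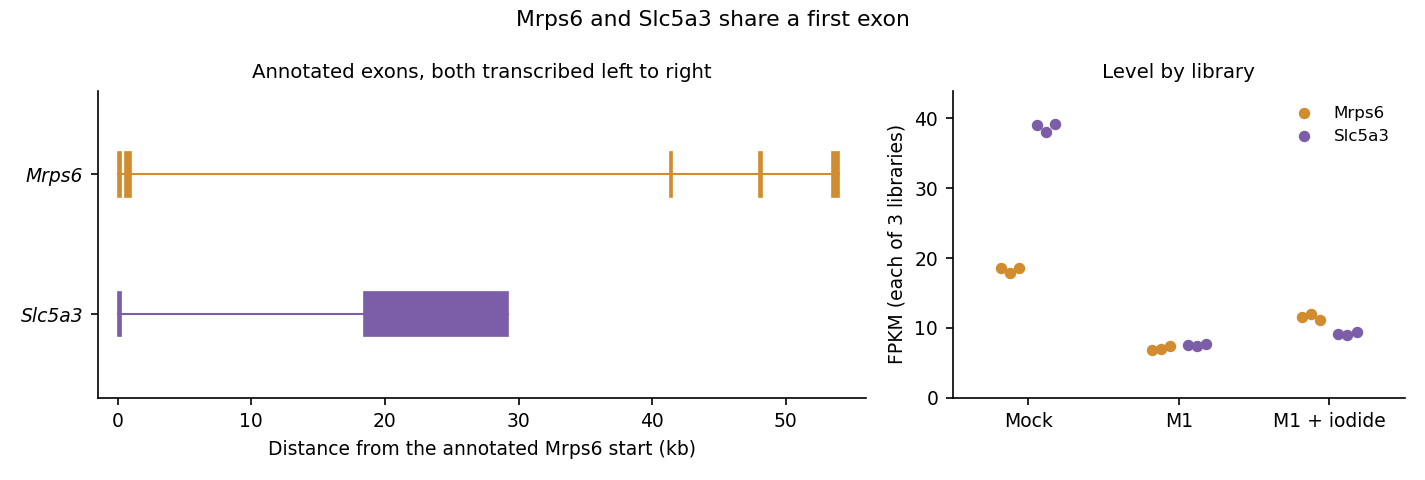
Left, annotated exons of Mrps6 and Slc5a3 as distance from the Mrps6 start (kb), drawn to scale; right, FPKM of both genes in each library (3 per group). The genes have 1 exon in common at the left edge, and both are lowest in M1.

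The 8 genes that did not pass in this comparison were Mrpl14, Mrpl18, Mrpl20, Mrpl37, Mrpl49, Mrpl52, Mrpl54 and Mrps2, of which 7 belong to the large subunit. Mrpl14 had 29.6, 28.1 and 29.2 FPKM with iodide (log2 difference −0.05 ± 0.054 (SE), adjusted p = 0.401, and 0.02 with RLE scaling). Mrpl52 had 37.5, 35.9 and 34.5 FPKM with iodide (log2 difference −0.10 ± 0.047 (SE), adjusted p = 0.0795), and it passed as lower without Mock replicate 1, at −0.10, or without I replicate 1, at −0.13. Mrps2, at its low M1 level, had 6.27, 5.97 and 5.36 FPKM with iodide (log2 difference −0.13 ± 0.054 (SE), adjusted p = 0.0607), and likewise passed as lower, at −0.17, without I replicate 1. A p that misses the threshold does not show equal levels.

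Set against Mock, cells polarized with iodide had 61 members lower, 8 higher and 8 not passing. Of all genes 58.6% were lower and 28.2% higher, so the share of members lower, 79.2%, stands beside a high background. The median member differed by −0.48 and the median gene by −0.30. With RLE scaling 43 members were lower and 23 higher, against 42.9% and 42.7% of all genes. With FPKM as deposited, a log2 difference below −1 was reached by 16 members, and one above 1 by 2, Mrpl45 and Mrpl14. With RLE scaling fewer members lay below −1, and Mrpl15, for example, went from −1.11 to −0.80. Upwards, Mrpl52 (1.13) and Mrps21 (1.02) then passed 1 too. The share of all genes beyond these limits was not counted. The 8 higher members were Mrpl4, Mrpl14, Mrpl18, Mrpl27, Mrpl43, Mrpl45, Mrpl52 and Mrps21. This comparison shares its libraries with the other 2 and adds no independent measurement.

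At the low end were Mrps28, at 24.9 ± 0.917 FPKM in Mock and 6.09 ± 2.08 with iodide (SD, n = 3; log2 difference −1.91 ± 0.17 (SE), adjusted p = 6.8e-07), Mrps2 (log2 difference −1.79 ± 0.054 (SE), adjusted p = 7.12e-11) and Mrpl3 (log2 difference −1.76 ± 0.053 (SE), adjusted p = 6.36e-11). At the high end Mrpl45 was 3.08-fold and Mrpl14 2.47-fold the Mock level, with log2 differences of 1.59 ± 0.029 and 1.24 ± 0.054 (SE).

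The large and small subunit genes were counted apart. In M1 vs Mock 9 of 48 Mrpl genes were higher and 26 lower (median −0.15), and 9 of 29 Mrps genes were higher and 15 lower (median −0.16). With RLE scaling these became 26 higher and 14 lower for Mrpl, and 16 higher and 7 lower for Mrps. With iodide against M1, 40 of 48 Mrpl genes were lower and 1 higher (median −0.32), and 26 of 29 Mrps genes were lower and 2 higher (median −0.39). With iodide against Mock, 39 Mrpl genes were lower and 7 higher, and 22 Mrps genes were lower and 1 higher. With RLE scaling this comparison had 28 lower and 15 higher for Mrpl, and 15 lower and 8 higher for Mrps. The shares lower in M1 vs Mock, 54.2% of Mrpl and 51.7% of Mrps, lie near the 55.3% of all genes, of which 30.5% were higher. With RLE scaling 43.1% of all genes were higher and 42.6% lower in M1 vs Mock, and 42.7% and 42.9% with iodide against Mock. With iodide 39.3% of all genes were lower and 24.9% higher against M1, and 58.6% and 28.2% against Mock. The difference between the subunits was not tested, since genes of a subunit are not replicates.

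Some symbols do not give the place of the protein. Mrps30 and Mrps18a are named for the small subunit but are built into the large one in mammals, and Mrps36 is known as a part of the oxoglutarate dehydrogenase complex. With these moved, 9 of 50 large subunit genes were higher in M1 and 27 lower, and 8 of 26 small subunit genes were higher and 14 lower. With RLE scaling these became 27 higher and 14 lower, and 14 higher and 7 lower. With iodide against M1 42 of 50 and 23 of 26 were lower (medians −0.31 and −0.41). Of all genes 30.5% were higher and 55.3% lower in M1 (43.1% and 42.6% with RLE scaling), and 39.3% were lower with iodide. Mrps30 had 5.03 ± 0.458, 3.93 ± 0.135 and 3.16 ± 0.0646 FPKM in Mock, M1 and M1 with iodide (SD, n = 3 here and in the next sentences). Mrps36 was highest in M1, with 9.28 ± 0.456, 11.96 ± 1.13 and 9.17 ± 0.367 FPKM in Mock, M1 and M1 with iodide, and annotated pseudogenes of it can share its reads.

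Mrps18a, Mrps18b and Mrps18c are relatives of a single bacterial protein, and they took different courses. Mrps18a, of the large subunit, had 10.8 ± 0.534, 10.2 ± 0.865 and 8.27 ± 0.606 FPKM in Mock, M1 and M1 with iodide, and the difference between M1 and Mock did not pass the test (log2 difference −0.08 ± 0.065 (SE), adjusted p = 0.297). With RLE scaling that difference was 0.20 and passed as higher, so the course of Mrps18a depends on the scaling. Mrps18b had 14.6 ± 0.655, 8.42 ± 1.32 and 6.296 ± 0.442 FPKM in Mock, M1 and M1 with iodide and was lower in M1 (log2 difference −0.74 ± 0.088 (SE), adjusted p = 1.03e-05). Mrps18c had 7.59 ± 1.01, 10.4 ± 0.76 and 8.19 ± 0.622 FPKM in Mock, M1 and M1 with iodide and was higher in M1 (log2 difference 0.42 ± 0.082 (SE), adjusted p = 0.000591). All 3 were lower with iodide than in M1, with log2 differences of −0.27, −0.36 and −0.32. Exons of Mrps18b and Mrps18c overlap other annotated gene models over 30.5% and 23.2% of their length.

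Of the stalks of the large subunit, where translation factors and transfer RNAs come and go, Mrpl12 had 49.6 ± 1.46, 33.7 ± 1.71 and 26.4 ± 2.76 FPKM in Mock, M1 and M1 with iodide. Mrpl11, at the base of the same stalk, had 8.54 ± 0.304, 6.06 ± 0.145 and 3.99 ± 0.0982 FPKM in Mock, M1 and M1 with iodide, and Mrpl1, of the stalk on the other side, had 9.498 ± 0.444, 7.51 ± 0.522 and 5.99 ± 0.097 FPKM in Mock, M1 and M1 with iodide. All were lower in M1 than in Mock and lower with iodide than in M1. With RLE scaling Mrpl1 did not pass in M1 vs Mock (log2 difference −0.03). Mrps12, which sits at the decoding site, had 9.58 ± 0.795, 6.99 ± 0.817 and 4.67 ± 0.198 FPKM in Mock, M1 and M1 with iodide and went the same way, though with RLE scaling it did not pass in M1 vs Mock (log2 difference −0.14).

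Mrpl58, a peptidyl-tRNA hydrolase that frees stalled chains and is also a part of the large subunit, had 7.14 ± 0.618, 6.75 ± 0.381 and 4.53 ± 0.142 FPKM in Mock, M1 and M1 with iodide. Mock and M1 overlap, and iodide lies below both (log2 difference from M1 −0.49 ± 0.059 (SE), adjusted p = 3.66e-05). Mrps34, a mitochondria-specific protein of the small subunit, was highest in M1 with 7.66 ± 0.311, 11.1 ± 1.03 and 8.36 ± 0.74 FPKM in Mock, M1 and M1 with iodide. However, 63.4% of its exon length is shared with Mapk8ip3 on the other strand and 37.0% with Nme3 on the same strand. Mrpl44, which carries a domain related to ribonucleases, had 20.9 ± 1.33, 18.7 ± 0.877 and 15.8 ± 0.652 FPKM in Mock, M1 and M1 with iodide, and its difference from Mock in M1 turned from −0.16 to 0.13 with RLE scaling. That call was also lost without Mock replicate 1, Mock replicate 2 or M1 replicate 3.

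By origin, 45 members have a bacterial counterpart and 32 were counted as specific to mitochondria, a division made from textbook knowledge after the values were seen. Mrps18a and Mrps18b are among the 32, although they are relatives of a bacterial protein. Of the first, 9 were higher and 25 lower in M1, and 39 were lower with iodide. Of the second, 9 were higher and 16 lower in M1, and 27 were lower with iodide. Of all genes 30.5% were higher and 55.3% lower in M1, and 39.3% were lower with iodide. With RLE scaling the first had 23 higher and 14 lower in M1 and the second 19 and 7, where 43.1% and 42.6% of all genes were, and 37 and 25 were lower with iodide. The medians with iodide, without RLE scaling, were −0.37 and −0.36. Exon overlap with another gene of the files concerns 22 members. They split 8 higher to 8 lower in M1, and the 55 without such an overlap split 10 to 33. With RLE scaling these became 17 to 4 and 25 to 17. With iodide 18 of 22 and 48 of 55 were lower (16 and 46 with RLE scaling). The most affected is Mrps25, which shares 69.8% of its exon length with Nr2c2.

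Proteins of the mitochondrial ribosome that carry other names gave mixed results in M1. Of 5 such genes 3 were higher and 2 lower, under both scalings. Of all genes 30.5% were higher and 55.3% lower in M1 (43.1% and 42.6% with RLE scaling), and 24.9% and 39.3% with iodide against M1. Dap3, a GTP-binding protein of the small subunit, went from 15.02 ± 0.598 to 21.5 ± 0.337 FPKM and was 16.7 ± 0.588 with iodide. Ptcd3, a small subunit protein of the RNA-binding PPR family, fell from 15.5 ± 0.498 to 4.95 ± 0.107 and was 4.75 ± 0.122 with iodide. With iodide 3 of the 5, Aurkaip1, Dap3 and Chchd1, were lower than in M1 and 0 were higher, and Ptcd3 did not pass (log2 difference −0.05 ± 0.039 (SE), adjusted p = 0.304).

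Beside the counts for the factors that work with the ribosome stand 55.3% of all genes lower in M1 (42.6% with RLE scaling) and 39.3% lower with iodide (31.7%). Of 14 listed translation factors 12 were lower and 1 higher (8 and 2 with RLE scaling), of 17 in the list. Lrpprc, which stabilizes mitochondrial messenger RNAs, had 20.8, 3.04 and 2.76 FPKM in Mock, M1 and iodide, and the elongation factor Gfm1 had 25.7, 11.5 and 7.76. Of 21 assembly and rRNA-modifying proteins 18 were lower and 1 higher (14 and 3 with RLE scaling). Fastkd2, an RNA-binding assembly protein, had 6.94, 0.997 and 0.824 FPKM, and the GTPase Mtg1 had 5.303, 3.29 and 1.78. With iodide against M1, 8 of the 14 and 12 of the 21 were lower, and 1 and 2 were higher (8 and 9 lower, 3 and 2 higher with RLE scaling). Among the assembly proteins Tfb1m, which methylates the small subunit's RNA, had 2.42, 2.33 and 2.04 FPKM in M1 and 0.745, 1.04 and 1.02 with iodide (log2 difference −0.76 ± 0.071 (SE), adjusted p = 5.27e-06).

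Genes that transcribe and maintain the mitochondrial genome, the source of the ribosome's RNAs, were lower in M1 in 8 of 9 cases and higher in 1, under both scalings. Of all genes 55.3% were lower and 30.5% higher in M1 (42.6% and 43.1% with RLE scaling). Tfam, which packs that genome and starts its transcription, had 17.7, 17.7 and 16.9 FPKM in Mock and 5.401, 4.998 and 4.88 in M1 (log2 difference −1.60 ± 0.045 (SE), adjusted p = 4.06e-11). With iodide 1 of the 9 was lower than in M1 and 2 were higher, and with RLE scaling 4 were higher. Of all genes 39.3% were lower and 24.9% higher (31.7% and 31.2% with RLE scaling). The lower one was the elongation factor gene Tefm (log2 difference −0.47 ± 0.061 (SE), adjusted p = 5.71e-05), and the higher ones were Twnk (log2 difference 0.64 ± 0.058 (SE), adjusted p = 4.02e-06) and the single-strand binding protein gene Ssbp1 (log2 difference 0.28 ± 0.053 (SE), adjusted p = 0.000808). For this list the count with iodide differed from that of the ribosomal proteins, though the difference between the lists was not tested.

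Among 8 regulators of mitochondrial biogenesis 2 were higher and 4 lower in M1, and 5 and 2 with RLE scaling. Of all genes 30.5% were higher and 55.3% lower, and 43.1% and 42.6% with RLE scaling. Myc, a growth regulator, had 0.289, 5.402 and 9.28 FPKM in Mock, M1 and iodide. Pprc1, a coactivator of NRF1, had 15.95, 3.18 and 2.75, and Gabpa, the factor whose motif was searched above, had 19.4, 8.49 and 10.1. Nrf1 did not pass in M1 vs Mock (log2 difference −0.003, adjusted p = 0.949), but with RLE scaling the difference was 0.235 and Nrf1 was among the 5 higher. It was higher with iodide than in M1 (log2 difference 0.31 ± 0.046 (SE), adjusted p = 0.000156).

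Counts and medians of a pair of related gene groups are given beside these. Of 85 tested cytosolic ribosomal protein genes 66 were higher and 6 lower in M1, with a median of 0.33, and of 86 nuclear genes for respiratory chain subunits 46 were higher and 14 lower, with a median of 0.18. The mitochondrial ribosomal proteins had 18 higher and 41 lower with a median of −0.16. With RLE scaling the medians were 0.62, 0.47 and 0.13. With iodide against M1, 67 of the 85 were lower and 0 higher (median −0.24), and 69 of the 86 lower and 1 higher (median −0.35), beside 66 of 77 and a median of −0.37 for the mitochondrial ribosomal proteins. With RLE scaling 56 of the 85, 63 of the 86 and 62 of the 77 were lower. Of all genes 30.5% were higher and 55.3% lower in M1. With iodide against M1 24.9% of all genes were higher and 39.3% lower (31.2% and 31.7% with RLE scaling). Genes of a group are not replicates, and the differences between groups were not tested. Cytosolic ribosomal protein genes have many processed pseudogenes that can share reads.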

How the data were processed

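RNA was measured in 9 libraries of RAW264.7 cells, 3 each of Mock, M1 and I. The authors deposited 1 table per library in FPKM, a unit read from the values since no header names it. Per the submitters' processing notes, fastp 0.20.1, HISAT2 2.2.1 and featureCounts 2.0.1 (Subread) were used with GRCm38. Of settings, strand use and annotation nothing is given in the sources used here. All 12474 rows are above 0 in every library, so genes at 0 anywhere are not analysed here. FPKM times GENCODE vM21 exon length gave whole fragments, within 0.05, in 98.4% to 98.6% of values per library and for all 78 members in all 9 libraries. This gave the library totals.

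limma 3.58.1 in R 4.3.3 was fitted to log2(FPKM + 1) of the 11156 rows with at least 0.5 FPKM in at least 3 libraries. One model with an intensity trend covered all 9 libraries. A call needed a p under 0.05 after Benjamini-Hochberg adjustment over all rows. The code was tested on simulated data. Libraries of a group differed by more than sampling noise (mean chi-square per gene 2.01 to 3.61). Alternatives were RLE and TMM scaling, other pseudocounts and filters, limma-voom on recovered fragments, a replicate block, a fit on 2 groups and leaving out each library.

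Members and lists were chosen with earlier results of these data known. Named in M1 vs Mock and I vs M1 are the 6 called members with the largest rise and fall, the 3 highest in mean FPKM and 13 chosen for their place, plus up to 3 genes per list and comparison with the smallest p. Mrps25, Slc5a3 and others outside the rule were named after their values were seen. Promoter sequences and starts are from RefSeq (GRCm38.p6), gene coordinates from GENCODE vM21.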

Additional observations from a re-analysis of the deposited data

How the results depend on the processing

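Libraries number 3 per group and lowly expressed members rest on few fragments, so small differences are hard to resolve. The scaling mattered most. In M1 vs Mock, RLE and TMM scaling each gave 42 members higher and 21 lower, and turned the median of the large subunit to 0.13 (RLE) and 0.14 (TMM) and that of the small subunit to 0.13 under either. In I vs Mock both gave 23 members higher, with medians of −0.14 (RLE) and −0.13 (TMM) for the large and −0.17 and −0.16 for the small subunit, and a pseudocount of 0.1 gave −0.58 for the small subunit. In I vs M1 the large subunit median was −0.26 under both scalings and −0.39 with the pseudocount of 0.1. Among the 29 named members, some differences changed sign under RLE and TMM. In M1 vs Mock they were Mrpl44 (0.13 and 0.14), Mrpl55 (0.048 and 0.053), Mrpl58 (0.19 and 0.20), Mrps18a (0.20 and 0.21) and Mrps31 (0.036 and 0.042). In I vs M1 it was Mrpl14 (0.019 and 0.023). In I vs Mock they were Mrps36 (0.32 and 0.33) and, under TMM, Mrps18a (0.004). Other members changed sign under RLE as well, such as Mrpl10 in M1 vs Mock (−0.13 to 0.16) and Mrpl20 in I vs Mock (−0.23 to 0.13). Leaving out 1 library at a time, Mrps36 in I vs Mock ranged from −0.046 to 0.02, with 0.02 without Mock replicate 1 and 0.0 without I replicate 3. Beyond the arithmetic of the scaling the causes were not tested. Over 1476 values of 87 results for the 29 named members, 1411 kept direction and side of the threshold, 24 lost the call, 24 gained one and 17 changed sign.

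Same-numbered libraries did not deviate together (correlations of −0.12 to 0.05, beside −0.085 to 0.119 between differently numbered ones). A small effect shared by same-numbered libraries could be hidden by the noise of single libraries. Whether the numbers pair the samples is therefore not known. With a replicate block 59 members were called in M1 vs Mock as without it, 68 in place of 69 in I vs M1 (67 of them shared, with Mrps25 and Mrps21 lost and Mrps2 gained) and 70 in place of 69 in I vs Mock.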
